A study of Homo sapiens with 6 samples.

Results

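The genes described are 9 human transporters of the ATP-binding cassette (ABC) family that are linked to multidrug resistance: ABCB1, ABCB4, ABCC1, ABCC2, ABCC3, ABCC4, ABCC5, ABCC6 and ABCG2. The list was chosen with earlier results of these data known. Its genes were picked out by gene symbol, and all 9 were found among the 60612 genes of the deposited count table. They were measured in HepG2, a liver cancer cell line labelled as wild type, after infection with lentivirus carrying an shRNA. A control shRNA was used in 3 libraries and an shRNA against circPRKAA1, a circular RNA from the PRKAA1 gene, in 3 others. The labels give no time after infection and no word on whether replicates are separate cultures. P-values therefore measure the spread between these libraries, which may be technical. The titles of all 3 knockdown libraries name circPRKAA1, while the shRNA label of replicates 2 and 3 reads circPRKAA2 and circPRKAA3.

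ABC transporters use ATP hydrolysis to push substrates out across a membrane. In a hepatocyte they are sorted to opposite faces of the cell. ABCB1, ABCB4, ABCC2 and ABCG2 sit on the canalicular (apical) side and export into bile, whereas ABCC1, ABCC3, ABCC4, ABCC5 and ABCC6 are basolateral and export towards the blood. ABCB1 (P-glycoprotein) and ABCG2 carry many cytotoxic drugs. Apart from ABCC6, the ABCC proteins named here are known mainly for organic anions, including drugs and bilirubin joined to glutathione or glucuronic acid.

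Totals were 16284262 to 20282496 counts per library. Counts of the 9 genes ran from 214 (ABCC4 in control replicate 1) to 10452 (ABCC2 in knockdown replicate 1). Genes with at least 1 count numbered 21736 ± 604 in control and 23978 ± 202 in knockdown libraries, and GC content averaged over counts was 50.3 ± 0.417% and 48.9 ± 0.123% (SD, n = 3 each). Circular RNAs are named in 0 rows, and the knockdown itself was not checked. The growth protocol calls the cells mesenchymal and the cell type label calls them epithelial. All 15 hepatocyte markers passed the filter on low counts, with a summed level of 39770 to 40670 CPM in control and 38920 to 40290 CPM in knockdown libraries, where CPM are counts scaled to library totals adjusted by TMM, a normalization on the trimmed mean of log ratios. On plain library totals the same sum was 36510 to 38500 and 42060 to 43110, so the scaling decides whether the groups overlap. The sum hides changes in both directions. With TMM 4 of the 15 were called higher and 7 lower (26.7% and 46.7%, against 36.1% and 32.4% of all tested genes). With TPM scaling 7 were higher and 4 lower. APOA1 was at -1.10, HNF4A at -1.49 and APOB at 0.66 on the log2 scale with TMM. The other marker sums are on the TMM scale. Fibroblast markers (8) summed to 3.82 to 4.28 and 2.71 to 3.10 CPM. Endothelial markers (7, of which KDR, TEK, ERG and EMCN were at 0 everywhere) summed to 4.82 to 7.45 and 4.76 to 5.49 CPM. Immune markers (8) summed to 771 to 847 and 610 to 638 CPM, nearly all of it LYZ (799 and 615 CPM on average). Cholangiocyte markers (8) summed to 724 to 816 and 844 to 860 CPM, and without KRT19 (133 and 259 CPM on average) to 578 to 693 and 585 to 601 CPM, while SOX9 averaged 236 and 162 CPM. The part of these markers in the results was not tested. In bulk RNA, fewer cells that express a gene and less of its RNA per cell cannot be told apart.

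Levels between genes were compared as FPKM (counts scaled to exonic length and library total). ABCC2, the canalicular exporter of bilirubin glucuronide, stood far above the rest in the control libraries at 33.9, 43.0 and 37.7 FPKM. ABCC1 followed at 11.2 ± 0.548 FPKM, then ABCC6 at 9.12 ± 0.454, ABCB1 at 7.55 ± 1.12, ABCC3 at 5.02 ± 0.290 and ABCG2 at 4.58 ± 0.598 FPKM (SD, n = 3 each). ABCC5 (2.61 ± 0.130), ABCB4 (2.03 ± 0.118) and ABCC4 (1.82 ± 0.262 FPKM) were the lowest of the 9. Of the 8 neighbouring pairs in this order 6 were apart in every library, while ABCC3 overlapped ABCG2 and ABCB4 overlapped ABCC4. Among all tested genes the control FPKM of ABCC2 lay above 92.3% and that of ABCC4 above 37.2%.

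**Figure D1:**
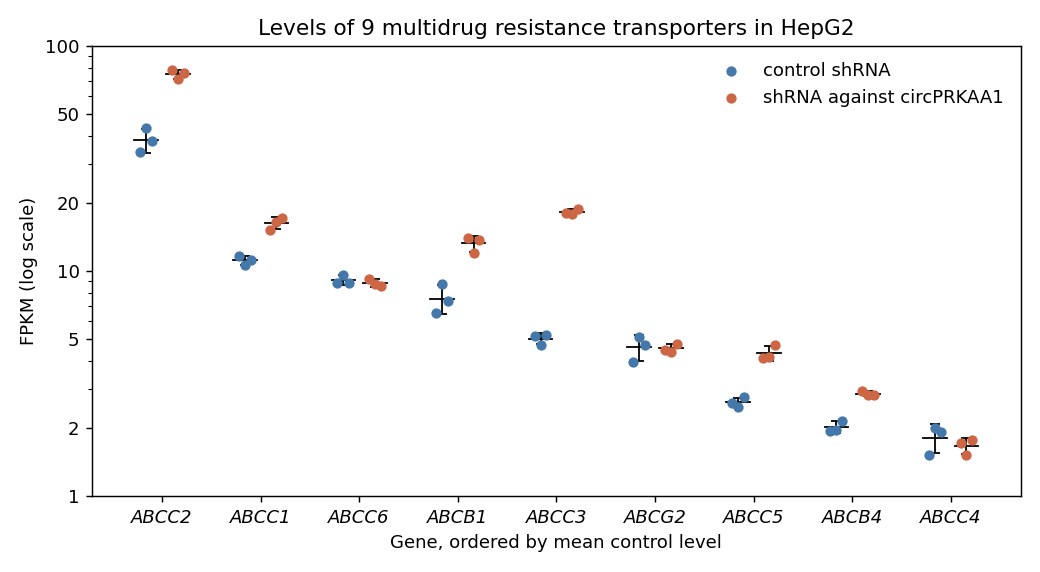
FPKM (log scale) of the 9 transporters in each library; points are libraries (blue control shRNA, orange shRNA against circPRKAA1), lines are group means and bars are SD (n = 3). ABCC2 is highest in both groups, and ABCC3 goes from rank 5 among controls to rank 2 in the knockdown libraries.

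The knockdown libraries were compared with the controls to ask how the transporters differ when the shRNA targets circPRKAA1. ABCC3, the basolateral exporter of glucuronides and bile salts, rose 3.17-fold, the largest change among the 9. ABCC2 rose 1.71-fold, ABCB1 1.53-fold, ABCC5 1.44-fold and ABCC1 1.27-fold. ABCB4 was called higher at 1.22-fold, but lost its call in 7 of 18 alternatives and was at -0.04 on the log2 scale once GC content and length were adjusted for in each library. ABCC4 and ABCC6 were called lower, at 0.799 and 0.846 of the control level, but their calls were lost under several scalings. ABCG2 did not pass. In all, 6 of 9 were called higher and 2 lower (edgeR adjusted p under 0.05), whereas 68.4% of the 14990 tested genes were called, 36.1% as higher and 32.4% as lower. All 9 passed the filter on low counts. Their median log2 change was 0.35, against 0.05 over all tested genes. The 9 genes were chosen with earlier results of these data known, so these shares and medians are no test of the group. Changes are stated relative to the TMM scaling. The median log2 change over all genes moved by 0.20 with library totals, 0.29 with TPM scaling and 0.19 with limma on log2(FPKM + 0.1). It moved by -0.16 after per-library offsets for GC content and exonic length. Without the count filter it moved by 0.19, but over 30361 genes and not 14990, so this shift includes a change in the genes tested. ABCC3 and ABCC2 were then at 1.63 and 0.74 on the log2 scale, against 1.67 and 0.77 with the filter. Higher genes made up 52.7% of the calls with TMM, 65.7% after scaling to totals, 71.6% on the TPM scale, 65.1% and 65.2% with limma on log2(FPKM + 1) and log2(FPKM + 0.1), and 40.6% with the offsets.

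ABCC3 measured 54.0, 47.6 and 53.7 TMM-scaled CPM with the control shRNA and 161, 163 and 168 CPM after knockdown. Every knockdown library lay about 3 times above every control, with little spread in either group. The log2 change was 1.67 (SE 0.08, edgeR adjusted p = 7.51e-11), and it lay between 1.56 and 1.96 and was called in all 18 alternative settings. It exceeded the change of 94.5% of tested genes, and of all tested genes 14.1% were called and higher by 2-fold or more. The gene spans chromosome 17, 50634777 to 50692253, on the plus strand (GRCh38). ANKRD40, which begins 944 bases beyond ABCC3 on the other strand, averaged 82.9 and 73.7 CPM (log2 change -0.17, edgeR adjusted p = 0.0479, and 0.03 with library totals). SPATA20, the nearest tested gene on the other side, was at 0.11 and did not pass.

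ABCC2 measured 289, 356 and 317 CPM with the control shRNA and 568, 530 and 548 CPM after knockdown. The groups were well apart although the controls varied among themselves. The log2 change was 0.77 (SE 0.08, edgeR adjusted p = 3.31e-07) and was called in all 18 alternatives, from 0.47 with offsets for GC content and length to 1.11 with quantile normalization. The gene lies on chromosome 10, 99782640 to 99852594. Of its nearest tested neighbours, CUTC was called lower at -0.27 on the log2 scale (0.02 with TPM scaling) and DNMBP did not pass at 0.15.

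ABCB1, the P-glycoprotein gene on chromosome 7 (87503017 to 87713323, minus strand), measured 45.8, 59.4 and 50.7 CPM with the control shRNA. Its knockdown libraries measured 83.5, 73.3 and 81.8 CPM, and the groups did not overlap. The log2 change was 0.61 (SE 0.10, edgeR adjusted p = 3.27e-05), called in all 18 alternatives but as small as 0.26 with the GC and length offsets. ABCB4, which encodes the flippase that supplies phosphatidylcholine to bile, lies 22581 bases from it on the same strand (87401696 to 87480435). ABCB4 measured 16.4, 16.2 and 17.9 CPM with the control shRNA and 21.0, 20.8 and 20.1 CPM after knockdown. Its log2 change of 0.29 (SE 0.10, edgeR adjusted p = 0.0184) was called in 11 of 18 alternatives, was -0.04 with the offsets and lost its call without control replicate 2 (edgeR adjusted p = 0.0931) or knockdown replicate 1 or 2 (0.0633 and 0.0553), in a range of 0.000336 to 0.702 over the alternatives. The other genes of this stretch were also higher: CROT (peroxisomal carnitine octanoyltransferase), 1901 bases beyond ABCB4, by 1.21, SLC25A40 by 0.38, or -0.42 with the offsets, and RUNDC3B, which overlaps ABCB1 on the other strand, by 0.94 on the log2 scale. RUNDC3B averaged 30.7 and 61.3 counts against 910 and 1444 for ABCB1, and their annotated exons share 0 bases. Of 4729 stretches of 50 bases in the longest coding transcript of ABCB1, 119 (2.52%) are also in transcripts of ABCB4, so a small part of the reads could fall to either.

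The stretches before a RefSeq transcription start of ABCB1 and ABCC2, which rose, and of ABCC4, which was called lower, are shown because base composition there differs widely between them. The sequences are the 250 bases upstream of the start in RefSeq (GRCh38.p14), 5′ to 3′ on the gene's strand, at chr7:87713296-87713545 (minus), chr10:99782390-99782639 (plus) and chr13:95301452-95301701 (minus). Capitals mark matches to the motifs searched.
ABCB1: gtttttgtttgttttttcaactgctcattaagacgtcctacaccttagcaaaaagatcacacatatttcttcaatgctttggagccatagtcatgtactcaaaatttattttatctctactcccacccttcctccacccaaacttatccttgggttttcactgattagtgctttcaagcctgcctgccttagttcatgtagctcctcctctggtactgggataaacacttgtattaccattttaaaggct
ABCC2: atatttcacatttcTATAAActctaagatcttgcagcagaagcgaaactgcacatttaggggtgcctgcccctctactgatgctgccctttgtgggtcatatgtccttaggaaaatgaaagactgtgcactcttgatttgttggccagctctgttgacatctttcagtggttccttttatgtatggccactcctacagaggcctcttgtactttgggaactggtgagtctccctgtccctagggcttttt
ABCC4: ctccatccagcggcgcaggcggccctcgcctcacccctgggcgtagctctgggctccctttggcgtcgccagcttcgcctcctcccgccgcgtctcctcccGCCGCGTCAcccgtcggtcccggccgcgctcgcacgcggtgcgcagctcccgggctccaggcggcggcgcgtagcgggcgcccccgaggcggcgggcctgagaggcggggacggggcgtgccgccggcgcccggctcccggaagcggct
The ABCB1 and ABCC2 stretches hold 39.2% and 45.6% GC and that of ABCC4 80.4%, against a median of 58.0% over 35116 promoters. RefSeq promoters were matched for 6 of the 9 genes (also ABCC5 and ABCC6, with 64.8% and 70.8% GC, and ABCG2). The ABCG2 stretch holds 40% GC, close to that of ABCB1, and ABCG2 was not called. The motifs were searched on both strands. They were the GC box, spelled GGGCGG, and the AP-1 motif, whose letters are TGANTCA. The antioxidant response element was searched as TGACNNNGC and the core motif of nuclear receptors as AGGTCA. The E-box was searched in its form CACGTG, the TATA box in its form TATAAA, and the sterol response element by its consensus. No motif overlaps another in these 6 stretches. TATAAA was found 236 bases before the ABCC2 start and 28 bases before that of ABCC5, and is in 10.7% of all promoters. TGACNNNGC was found in that of ABCC4, on the other strand (10.9% of all), and GGGCGG in that of ABCC5 (42.6% of all). The ABCB1, ABCC6 and ABCG2 stretches held 0 of the 7 motifs. For each gene only the RefSeq start used here was searched. Any other starts of these genes were not, so base composition and motifs there are not known from this search.

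ABCC1, the widely expressed exporter of glutathione conjugates (chromosome 16, 15949577 to 16143074, plus strand), measured 96.6, 84.9 and 90.9 CPM with the control shRNA. Its knockdown libraries measured 107, 120 and 120 CPM, and the groups did not overlap. The log2 change was 0.35 (SE 0.08, edgeR adjusted p = 0.00102), called in all 18 alternatives (0.25 to 0.64). ABCC5, an exporter of cyclic nucleotides (chromosome 3, 183919934 to 184017939), measured 32.1, 30.0 and 33.6 CPM with the control shRNA and 43.4, 44.99 and 49.5 CPM after knockdown. Its log2 change of 0.53 (SE 0.09, edgeR adjusted p = 6.93e-05) was also called in all 18 alternatives (0.36 to 0.82). In both genes the groups lay closer together than for ABCC3, with the highest control at 96.6 and the lowest knockdown library at 107 CPM for ABCC1, and 33.6 and 43.4 CPM for ABCC5. ABCC5-AS1, an antisense gene within ABCC5, had 0 counts. Beside ABCC5, EIF2B5 fell by 0.42 (-0.13 and not called with TPM scaling) and PARL was at -0.01 (0.28 with TPM scaling).

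ABCC6, whose protein is needed for release of ATP from hepatocytes, is the neighbour of ABCC1, 5853 bases away on the opposite strand (chromosome 16, 16148928 to 16223522). It measured 73.2, 77.2 and 71.8 CPM with the control shRNA and 64.9, 62.9 and 60.3 CPM after knockdown. The log2 change of -0.24 (SE 0.08, edgeR adjusted p = 0.0100) was called in 13 of 18 alternatives, and was -0.04 with library totals, -0.15 and not called with quantile normalization, and 0.05 with TPM scaling. ABCC6 has pseudogene copies: 858 of 5698 stretches of 50 bases (15.1%) in its longest coding transcript are in transcripts of other genes, 802 of them in ABCC6P1 and 312 in ABCC6P2. In the table ABCC6P1 held 342, 570 and 479 counts in control and 513, 536 and 480 in knockdown libraries (log2 change 0.08, edgeR adjusted p = 0.519). ABCC6P2 held 195, 206 and 194 counts and then 123, 112 and 122 (log2 change -0.81, edgeR adjusted p = 5.74e-05). How the counting split reads between these copies is not given in the sources used here, so the value of ABCC6 is uncertain. On the far side of ABCC6, NOMO3 rose by 0.42, and on the far side of ABCC1, CEP20 was at -0.12 (edgeR adjusted p = 0.170), or 0.08 with library totals.

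ABCC4, a basolateral exporter of cyclic nucleotides and bile salts (chromosome 13, 95019835 to 95301475), measured 14.3, 18.3 and 17.9 CPM with the control shRNA and 13.8, 12.5 and 14.3 CPM after knockdown. Control replicate 1 lay within 0.1 CPM of the highest knockdown library. The log2 change was -0.32 (SE 0.12, edgeR adjusted p = 0.0260) and was called in 10 of 18 alternatives. It was -0.12 with library totals and -0.03 with TPM scaling, and -0.73 with the GC and length offsets. The call was lost without control replicate 3 (edgeR adjusted p = 0.0626) and without knockdown replicate 1 or 2 (0.0587 and 0.109), in a range of 3.86e-07 to 0.852 over the alternatives. ABCG2, which exports urate and many drugs (chromosome 4, 88090150 to 88231628), measured 24.0, 30.3 and 28.2 CPM with the control shRNA and 23.3, 23.2 and 24.7 CPM after knockdown. The groups overlapped, and its log2 change of -0.22 (SE 0.10, edgeR adjusted p = 0.0744) did not pass. It was 0.07 with TPM scaling, and it was called lower in 5 of 18 alternatives, with -0.65 under the offsets and -0.33 without control replicate 1 (edgeR adjusted p = 0.00189, in a range of 6.21e-08 to 0.947). Both genes beside ABCG2 rose, PKD2 by 1.30 and PPM1K by 1.08 on the log2 scale (1.06 and 0.49 with the offsets). Beside ABCC4, DZIP1 rose by 0.50 (0.13 and not called with the offsets) and TGDS was at 0.30 and did not pass (-0.23 with the offsets). Of the 9 genes 8 had groups that did not overlap in TMM-scaled CPM, as did 72.1% of all tested genes.

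**Figure D2:**
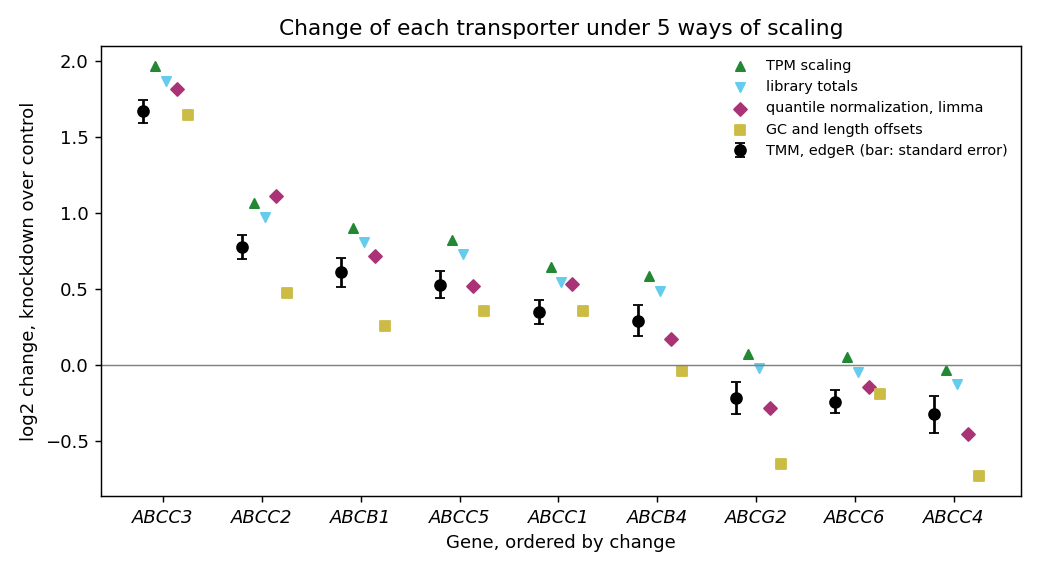
Log2 change (knockdown over control) of each transporter under 5 ways of scaling; black circles are the edgeR result with TMM and bars its standard error (n = 3 against 3). ABCC3, ABCC2, ABCB1, ABCC5 and ABCC1 stay above 0 under each, ABCB4 falls to -0.04 with the offsets, and ABCG2 and ABCC6 reach 0.07 and 0.05 with TPM scaling.

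Ratios of genes within a library do not change with a scaling factor per library, such as TMM or library totals. They can change with quantile normalization and with the GC and length offsets. The ABCC3 level was 0.152, 0.109 and 0.138 of the ABCC2 level (FPKM over FPKM) in control and 0.232, 0.251 and 0.250 in knockdown libraries. Against its fellow basolateral exporter ABCC1, ABCC3 was at 0.441, 0.442 and 0.465 in control and at 1.19, 1.08 and 1.10 in knockdown libraries, so the order of the pair turned. The ratio of ABCC3 to ABCC4 was 2.80 ± 0.536 and 10.9 ± 0.710, that of ABCC2 to ABCG2 8.34 ± 0.301 and 16.6 ± 0.818, and that of ABCB1 to ABCG2 1.65 ± 0.0738 and 2.93 ± 0.190 (SD, n = 3 each). The ABCC1 to ABCC6 ratio was 1.23 ± 0.115 and 1.85 ± 0.180. Of 9 ratios computed, 8 did not overlap between the groups. For each of these 8 the exact 2-sided permutation test gave p = 0.1, the smallest that 3 against 3 libraries allow, and for ABCB1 to ABCB4 the groups overlapped (3.73 ± 0.603 and 4.65 ± 0.353). The share of all gene pairs that lie apart was not computed. Of single tested genes, 72.1% did not overlap in TMM-scaled CPM. Several of the 9 pairs set ABCC3, which rose most, against other members, so the count of 8 is no result about these genes as a group.

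Summed over the 9 genes the level was 76.1, 88.3 and 81.9 FPKM in control and 148, 139 and 148 FPKM in knockdown libraries. ABCC2 made up 46.4 ± 2.13% of it in control and 51.7 ± 1.01% in knockdown libraries. The share of ABCC3 was 6.15 ± 0.758% and 12.6 ± 0.327%, while that of ABCC6 was 11.1 ± 0.454% and 6.12 ± 0.263% and that of ABCG2 5.57 ± 0.346% and 3.13 ± 0.0961% (SD, n = 3 each). In FPKM itself ABCC6 averaged 9.12 in control and 8.86 in knockdown libraries, and ABCG2 4.58 and 4.53. Their shares thus fell as the sum rose, with little change in their own FPKM. ABCB1 held a like share in both groups, 9.17 ± 0.676% and 9.13 ± 0.448%. FPKM rests on plain library totals. In TMM-scaled CPM the 9 genes summed to 646 to 720 in control and 1050 to 1087 in knockdown libraries. In the knockdown libraries the order of levels was ABCC2, ABCC3, ABCC1, ABCB1, ABCC6, ABCG2, ABCC5, ABCB4 and ABCC4, and 7 of the 8 neighbouring pairs were apart in every library, with ABCG2 and ABCC5 overlapping.

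**Figure D3:**
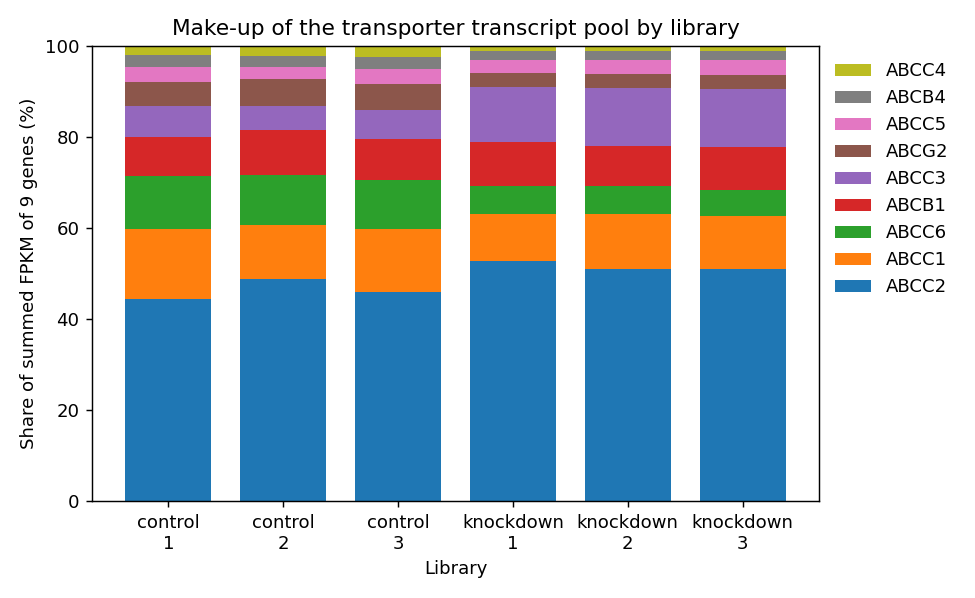
Share of each transporter in the summed FPKM of the 9 genes (percent), one bar per library. The ABCC3 band goes from 6.15% on average in control to 12.6% in knockdown libraries, and the ABCC6 band from 11.1% to 6.12%. The sum was higher in knockdown libraries, and the mean FPKM of ABCC6 was 9.12 and 8.86.

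Changes across all genes moved with base composition, so each transporter was set beside genes of like GC content. The median log2 change was 0.28 among genes with 40 to 45% GC, -0.16 at 50 to 55% and -0.27 at 55 to 60%. ABCC3 (55.8% GC) lay above 96.0% of the genes in its range, and ABCC5 (50.8%) and ABCC1 (54.9%) above 80.7% and 74.9% of theirs. ABCC2 (44.9%) and ABCB1 (43.1%) lay above 75.7% and 68.7%. ABCB4 (44.2%) and ABCC6 (58.7%) lay close to the middle of their ranges, above 50.8% and 52.0%. ABCC4 (43.2%) and ABCG2 (41.2%) lay low, above 16.6% and 21.2%. With offsets per library for GC content and exonic length, both were called lower (-0.73 and -0.65, edgeR adjusted p = 3.86e-07 and 6.21e-08). Among the controls, ABCB1, ABCC2, ABCC4 and ABCG2 were lowest in replicate 1 and highest in replicate 2, whose counts had the highest and the lowest mean GC content of the 3 (50.7% and 49.9%). ABCB4, also in the range of 40 to 45% GC, went otherwise, at 16.4, 16.2 and 17.9 CPM in control replicates 1 to 3. ABCC6, with 58.7% GC, was also highest in replicate 2 (73.2, 77.2 and 71.8 CPM). The part of GC content in these differences was not tested.

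**Figure D4:**
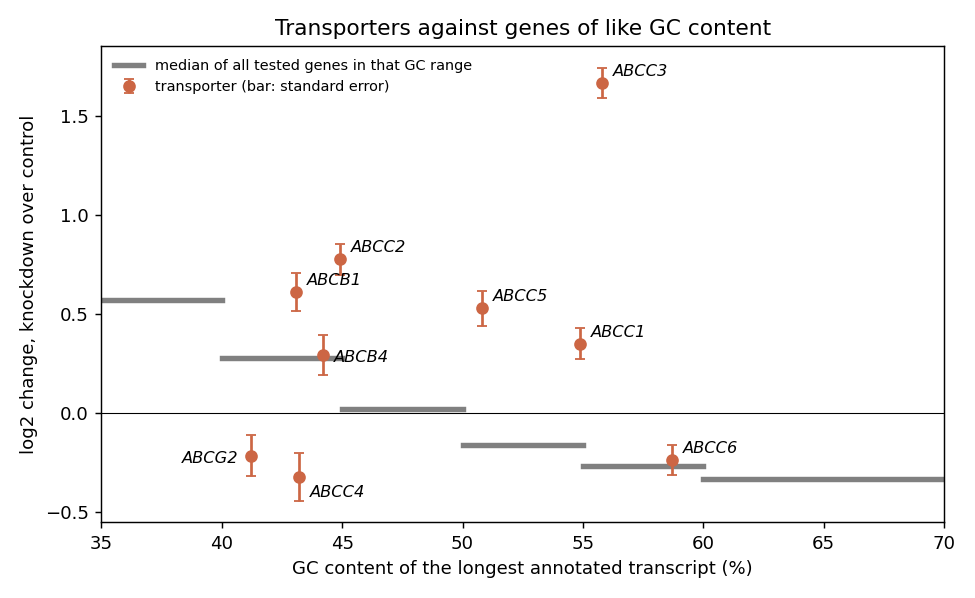
Log2 change of each transporter (orange, bar: standard error) against the GC content of its longest annotated transcript; grey lines are medians of all tested genes per GC range, the outer ranges being open-ended. ABCC3 is far above its range, ABCB4 and ABCC6 lie near the line, and ABCC4 and ABCG2 lie below it.

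Of 25 tested among 38 further ABC genes, 8 were called higher and 9 lower, and their median log2 change was -0.12. These are 32.0% and 36.0%, near the 36.1% and 32.4% of all tested genes. Within the ABCC subfamily ABCC10 averaged 29.4 ± 1.34 and 40.5 ± 1.40 CPM (SD, n = 3 each; log2 change 0.46, edgeR adjusted p = 0.000196), while ABCC11 was called lower. In the ABCA subfamily, known mainly for lipid transport, 5 of 7 tested genes were called higher and 0 lower, where 36.1% and 32.4% of all genes were. ABCA8, among these 5, averaged 0.109 CPM in control and 1.18 CPM in knockdown libraries. It passed the count filter only through the knockdown libraries. At a mean FPKM of at least 1, 2 of 3 tested ABCA genes were called higher and 0 lower. ABCA5 was at 2.64 on the log2 scale, or 1.62 with the offsets and 0.83 with limma on log2(FPKM + 1), and ABCA2 at 0.71. All 3 tested ABCF genes, which act in translation and not in transport, were called lower (2 of 3 with TPM scaling). The subfamilies were counted after the values were seen.

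Among carriers of the SLC families, which take up or exchange drugs and organic ions, 5 of 17 tested genes were called higher and 8 lower (median -0.29), or 76.5% in either direction against 68.4% of all genes. With TPM scaling, library totals and either limma setting on FPKM 6 were higher and 6 lower, and with the offsets 5 and 9. With quantile normalization 58.8% were called. SLC22A18 rose by 1.52, and the folate carrier SLC19A1, the organic cation transporter SLC22A3 and SLCO4A1 fell by 1.17, 1.17 and 0.86 on the log2 scale. Of 22 tested conjugation genes, which make glutathione, glucuronide and sulfate conjugates that ABCC proteins export, 0 were called higher and 15 lower (median -0.50), a share called of 68.2% against 68.4% of all genes, of which 32.4% were lower. The count of 0 depended on the scaling: 5 were higher and 9 lower with TPM scaling, 3 and 12 with library totals and with either limma setting on FPKM, and 2 and 13 with quantile normalization. GSTK1 was at 0.12 and not called with TMM, and was called higher at 0.32 with library totals. GSR, the glutathione reductase, averaged 309 ± 9.19 CPM in control and 158 ± 3.42 CPM in knockdown libraries (SD, n = 3; log2 change -0.97, edgeR adjusted p = 4.74e-09). MGST1, UGT2B10 and GSTA1 were at -0.98, -1.55 and -2.16, and the last 2 have close paralogs among which the counting may have split reads. Over all 5 groups of related genes 68 of 100 were called, close to the share of all genes.

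Of 21 tested regulators of drug transporter genes 6 were called higher and 10 lower (median -0.13), or 76.2% in either direction against 68.4% of all genes. With TPM scaling 7 were higher and 5 lower (57.1% called), and with the offsets 4 and 14 (85.7%). HNF4A, a hepatocyte transcription factor, averaged 424 ± 19.4 CPM in control and 151 ± 6.46 CPM in knockdown libraries (SD, n = 3; log2 change -1.49, edgeR adjusted p = 9.87e-11). RXRA, the partner of many nuclear receptors, fell by 1.30. AHR, the receptor of dioxins, rose from 20.8 ± 3.95 to 61.9 ± 2.84 CPM (SD, n = 3; log2 change 1.57, edgeR adjusted p = 6.94e-09, or 0.91 with the offsets). The drug sensors NR1I2 (PXR) and NR1I3 (CAR) were called lower (log2 change -0.41 and -1.09) and averaged 18.9 and 2.96 CPM in control libraries. NR1I2 was not called with library totals (-0.21), TPM scaling (-0.12) or either limma setting on FPKM, and NR1I3 was not called with TPM scaling (-0.80) or those limma settings. NFE2L2 (NRF2), which acts through antioxidant response elements, was at 124 ± 17.8 and 119 ± 8.98 CPM (SD, n = 3) and did not pass (-0.06, edgeR adjusted p = 0.602). It was at 0.14 and not called with library totals, and called lower at -0.27 with the offsets and at -0.18 without control replicate 1.

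Of 15 tested genes for the apical scaffold and for trafficking of canalicular proteins 3 were called higher and 4 lower (median -0.04), or 46.7% in either direction against 68.4% of all genes. With the offsets 2 were higher and 8 lower, and with TPM scaling 6 and 2. SLC9A3R1, a PDZ scaffold of the apical membrane, averaged 455 ± 41.4 CPM in control and 134 ± 1.96 CPM in knockdown libraries (SD, n = 3; log2 change -1.77, edgeR adjusted p = 4.30e-11). The syntaxin STX3 rose by 0.91, and RDX (radixin, which links ABCC2 to actin in the canaliculus) and RAB11A by 0.77 and 0.50. With the GC and length offsets RDX was at 0.12 and RAB11A at -0.16.

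Profiles over the 6 libraries (log2 CPM, each gene centred on its mean) were compared by Euclidean distance with the 100 related genes. That of ABCC2 was closest to RDX (distance 0.133) and HIF1A (0.179), and that of ABCB1 to HIF1A (0.158) and ABCA1 (0.238). ABCC1 and ABCC5 were both closest to ARNT (0.197 and 0.199), followed by SLC22A5 (0.227) and FOXO1 (0.215). ABCC4 was closest to PDZK1 (0.124) and ABCE1 (0.192), ABCC6 to TAP2 (0.191) and SULT1A1 (0.207), and ABCB4 to GSTK1 (0.256) and ABCC10 (0.269). ABCC3 had no profile as near, with SLC22A18 the closest at 0.359. These distances include the group change itself, so genes with TMM-scaled changes of like size lie near each other. With the GC and length offsets HIF1A was at 0.02 on the log2 scale (0.70 with TMM) and RDX at 0.12. ABCC2 was then at 0.47, and ABCB1 and ABCA1 were both at 0.26. Shared regulation was not tested.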

How the data were processed

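Polyadenylated RNA was prepared by a SMARTER kit (per the labels' protocols). Aligner, counting tool and strand setting were not given in the sources used here. Builds GRCm38, mm10 and hg18 are listed without a role, per the submitters' processing notes. The authors deposited raw counts per Ensembl gene, an exonic length and FPKM, per the file headers. Of the identifiers 96.3% are in GENCODE 29 (GRCh38) and 99.84% of those overlap its coordinates. Deposited FPKM equalled count over length and total within 0.005 in 5 columns, and 1 FPKM column without a replicate number was not used.

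Groups and replicate numbers came from the titles. The members and lists were chosen with earlier results of these data known. Low genes were removed with filterByExpr (counts of at least 10 and a total of 15), and the rest were scaled by TMM and tested with edgeR 4.0.16 (R 4.3.3) by its quasi-likelihood test over all 14990 genes, with Benjamini-Hochberg adjustment and a threshold of 0.05. On simulated counts of this comparison (14903 genes) 82% of 1.5-fold and 99% of 2-fold changes were recovered and 8 unchanged genes were called. Only 100 genes per fold were changed there, in random direction, and they were drawn from genes with higher expected counts. No shift in GC content or in the make-up of the libraries was simulated, so errors from the choice of scaling were not measured. GC content is that of the longest GENCODE transcript. The alternatives used limma 3.58.1, DESeq2 1.42.0 and, for offsets by GC content and length, mgcv 1.9.3. Named genes are the members, up to 4 genes with the smallest p per list, 5 preset regulators, the 2 nearest profiles per called member, and genes beside or over a member; a few of these are not reported here. Chi-square per degree of freedom between replicates was 3.56 to 14.7, more than counting noise alone. Each library was counted as 1 sample, but this spread cannot tell separate cultures from separate preparations of 1 culture.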

Additional observations from a re-analysis of the deposited data

How the results depend on the processing

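ABCC3, ABCC2, ABCB1, ABCC5 and ABCC1 kept their direction and their call in each of 18 alternatives, and 10257 called genes became 8393 to 11036. The count of members called lower was 2, and 0 with library totals, TPM scaling and limma on log2(FPKM + 1) or log2(FPKM + 0.1), 1 at a mean FPKM of at least 1, 3 with DESeq2, DESeq2 size factors or the offsets (ABCG2 then also lower), and 1 to 3 with a library left out. Members called higher were 5 or 6. With the replicate number as a block (replicate block) 9843 genes, and 6 and 2 members, were called. Deviations of same-numbered libraries correlated at -0.092, -0.149 and 0.041, and those of differently numbered ones at -0.069 to 0.159. No effect shared by same-numbered libraries was seen, but this cannot tell whether they were handled together.

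Signs turned as follows (log2). With TPM scaling ABCC6 was at 0.0512, ABCG2 0.0739, ABCE1 0.0879, ANKRD40 0.124, CEP20 0.170, NFE2L2 0.232, PDZK1 0.0472, SULT1A1 0.0611, CUTC 0.0195 and PARL 0.279. With library totals ANKRD40 was at 0.0290, CEP20 0.0770, NFE2L2 0.139 and PARL 0.187. With quantile normalization CEP20 was at 0.0210, NFE2L2 0.145 and SULT1A1 0.0191. With limma on log2(FPKM + 1) and log2(FPKM + 0.1) ABCE1 was at 0.00415 and 0.00488, ANKRD40 at 0.0269 and 0.0284, CEP20 at 0.0784 and 0.0806, NFE2L2 at 0.142 and 0.149, and PARL at 0.153 and 0.178. At a mean FPKM of at least 1 PARL was at 0.045. With the offsets ABCB4 was at -0.0399, RAB11A -0.158, SLC22A5 -0.0233, SLC25A40 -0.421 and TGDS -0.226. With a library left out NFE2L2 ranged from -0.178 to 0.00439, PARL from -0.126 to 0.0630 and SPATA20 from -0.0234 to 0.198. The cause was not tested. With 214 to 352 counts in control libraries ABCC4 is the least precise of the 9 (SE 0.12).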

Other observations

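ABCG5 and ABCG8, which work only as a pair to export sterols into bile, were called in opposite directions. ABCG5 stood at 12.1, 12.4 and 12.3 CPM in control and at 27.1, 22.4 and 24.2 CPM in knockdown libraries (log2 change 1.00, SE 0.11, edgeR adjusted p = 6.77e-07). ABCG8 stood at 22.4, 18.8 and 20.6 CPM in control and at 13.0, 11.1 and 13.5 CPM in knockdown libraries (log2 change -0.71, SE 0.12, edgeR adjusted p = 5.38e-05). Both kept their call and direction in 18 of 18 alternatives. The log2 ratio of their FPKM was 0.56, 0.85 and 0.71 in control and 2.50, 2.47 and 2.29 in knockdown libraries. The genes lie on opposite strands of chromosome 2 (43812472 to 43838865 and 43831942 to 43882988) and overlap by 6924 bases, so without stranded counting their reads could be mixed there. ABCG8 was chosen after its values were seen.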
